A study of Homo sapiens with 26 samples.

Results

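The adherens junction holds epithelial cells together through cadherins, whose tails are tied to actin by catenins. Described here are 10 of its genes, chosen by name from the 58735 genes of the expression table. They include the catenins CTNNA1, CTNNB1, CTNND1 and JUP, the alpha-catenin relative CTNNAL1 and the cadherins CDH1 and CDH3. The others are the linkers VCL and AFDN and the adhesion receptor NECTIN2. The set was drawn up around CTNNA1 because of its low values in DLD1 small clones, so its values there are a description with no test. All 10 genes passed the filter on low values (1 FPKM or more in at least 3 libraries).

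E-cadherin (CDH1) and P-cadherin (CDH3) bind the same cadherin on the next cell. Beta-catenin (CTNNB1) or plakoglobin (JUP, gamma-catenin) sits on the cadherin tail and recruits alpha-catenin (CTNNA1), which binds actin and, under tension, vinculin (VCL). The p120 catenin (CTNND1) holds cadherin at the membrane, while nectin-2 (NECTIN2) adheres in parallel and is linked to actin by afadin (AFDN).

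The 26 poly-A RNA libraries came from the colorectal cancer cell lines HCT116 and DLD1 and the triple-negative breast cancer line CAL51. Tetraploid (4N) clones arose after cytokinesis failure over 20 hr of drug. HCT116 and CAL51 cells were given blebbistatin, which blocks myosin II, at 75 µM, whereas DLD1 cells were given DCB (dihydrocytochalasin B), which blocks actin, at 1.5 µg/mL, so drug and line cannot be told apart. After 48 hr of recovery single cells were grown into clones, and the study sorted the 4N clones into large and small. HCT116 had 3 large 4N clones, 3 small 4N clones, 2 diploid (2N) clones and 1 parental library. DLD1 had 4 large, 3 small and 2 2N clones and 1 parental library, and CAL51 had 3 large, 1 small and 2 2N clones and 1 parental library. Each clone came from 1 cell, so a value that differs in 1 clone may be a property of that cell and its descendants, and p-values here reflect only how much clones vary.

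Depth ranged from 23.5 to 44.5 M reads per library, and no 2 libraries of a line agreed within sampling noise. The distance between 2 libraries was taken as the SD, over expressed genes, of their log2 differences. The CAL51 small clone was nearest to CAL51 2N clone 1 (SD 0.336). It stood at 0.512 from 2N clone 2 and at 0.601 to 0.692 from the large clones. The part of that likeness in CAL51 large minus small was not tested. The epithelial markers EPCAM, KRT8, KRT18, KRT19, CLDN7 and ESRP1 all averaged 1 FPKM or more in HCT116 and DLD1, and 4 of the 6 did so in CAL51. Their sum ranged widely over CAL51 libraries, from 206 to 3899 FPKM. It ran from 1145 to 2575 FPKM in HCT116 and from 1872 to 2588 FPKM in DLD1. Of 6 colon markers 1 reached that mean in HCT116 (CDX2) and 3 in DLD1, with CDX1 at 0.0610 FPKM or less in every library. Of 6 breast markers only TFAP2A reached it in CAL51, where KRT5 and KRT14 were listed at 0. Of 6 fibroblast markers 4 averaged 1 FPKM or more in CAL51, 1 in HCT116 and 0 in DLD1. They summed to between 0.851 and 46.9 FPKM over CAL51 libraries, 1.22 to 5.31 FPKM in HCT116 and 0.144 FPKM or less in DLD1.

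**Figure D1:**
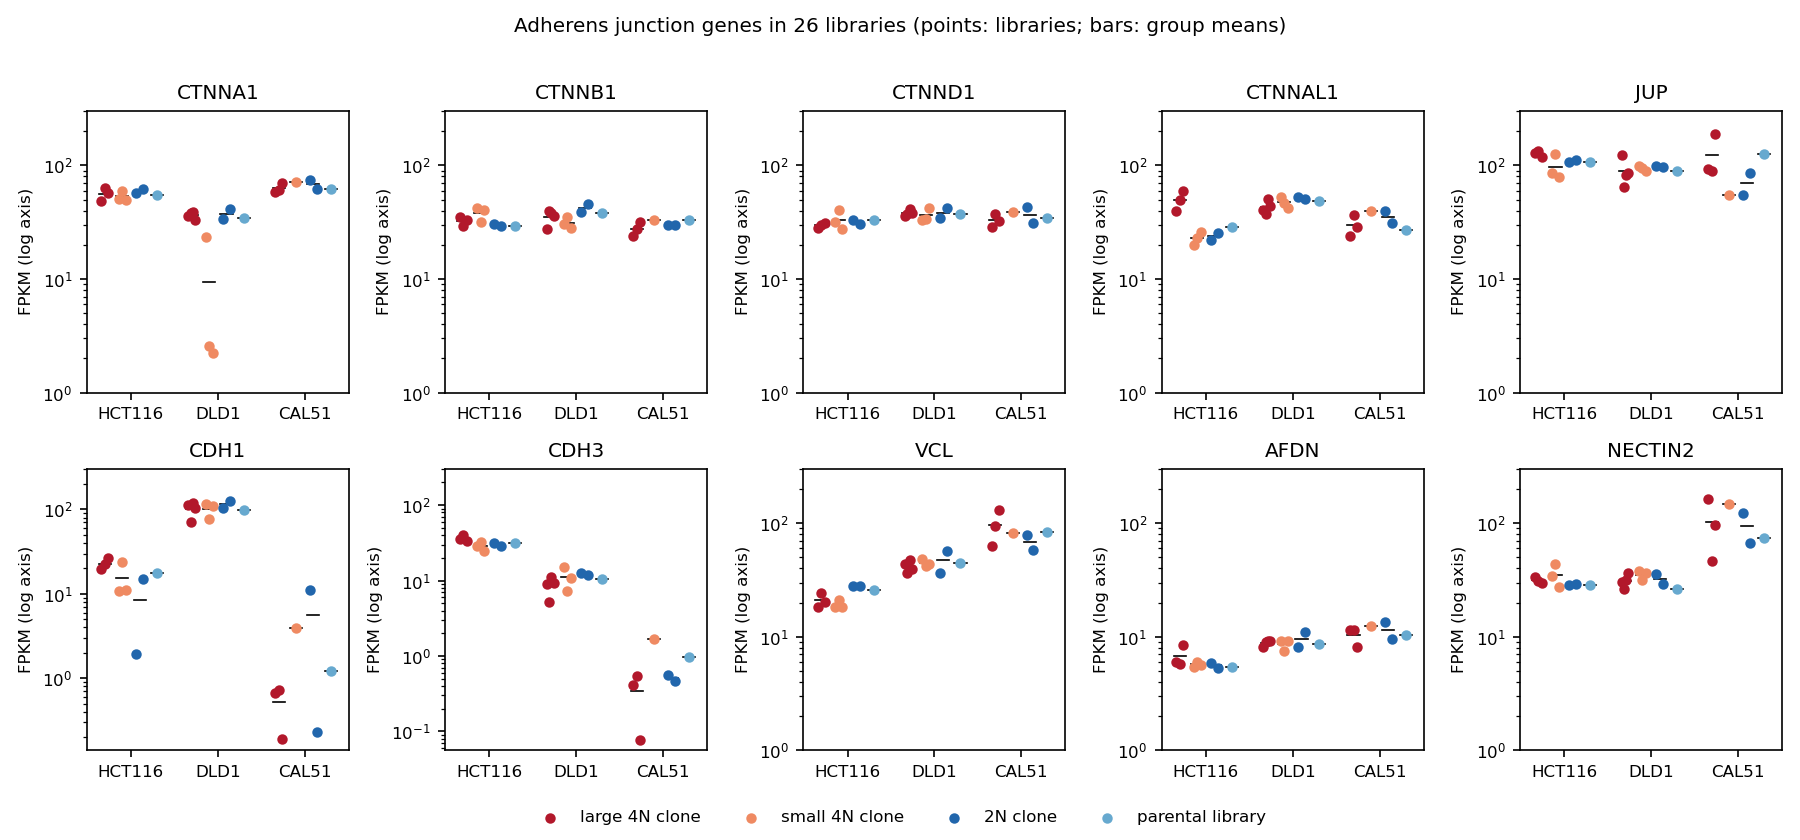
Each panel plots 1 gene, with FPKM on a log axis and libraries grouped by line and, within a line, as large 4N, small 4N, 2N and parental. Points are libraries and bars are group means; CTNNA1 was at 2.59 and 2.24 FPKM in DLD1 small clones 2 and 3, and CTNNAL1 was at 40.0 to 59.6 FPKM in HCT116 large clones.

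Alpha-catenin (CTNNA1, ENSG00000044115, chr5:138610967-138935034, plus strand, GRCh38) was low in 2 of the 3 DLD1 small clones. It measured 36.1, 38.0, 38.7 and 32.9 FPKM in the DLD1 large clones, 23.4, 2.59 and 2.24 FPKM in the small clones, 33.9 and 41.3 FPKM in the 2N clones and 34.5 FPKM in the parental library. Small clones 2 and 3 thus stood at 6.90% and 5.97% of the 2N mean, and small clone 1 at 62.3%. All 3 small clones lay below every other DLD1 library, by a wide margin only in clones 2 and 3. Over expressed genes the SD of the log2 differences between those 2 clones was 0.254, near the lowest in DLD1 (0.245, large clones 3 and 4). That likeness was not particular to the pair. Small clone 2 was about as near to the parental library (0.255), and small clone 3 stood at 0.281 from it. Small clone 1 stood at 0.347 from small clone 2 and 0.329 from small clone 3. Whether small clones 2 and 3 are related was not tested. The low values rested on 700 and 577 reads, against 7647 to 11491 reads in the other DLD1 libraries, so counting error was small beside the difference. Among 14835 tested genes ordered by their log2 difference from the 2N mean, CTNNA1 was the lowest of all in small clone 2 and ranked 3 from the bottom in small clone 3, but ranked 655 in small clone 1. The difference of group means on the log2(FPKM + 1) scale was 2.51 for large minus small clones and -2.55 for small minus 2N clones. Without small clone 1 these became 3.45 and -3.49. Leaving out small clone 2 or small clone 3 instead made both differences smaller in size.

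The other alpha-catenin genes were not detected at a level near that of CTNNA1. CTNNA2, the neural form, reached at most 0.00486 FPKM in any library, and CTNNA3, the form of heart and testis, at most 0.00825 FPKM. Neither was above 0 in any DLD1 library, where a count of 0 allows up to 3 reads. In DLD1 small clones 2 and 3 the ratio of CTNNA1 to the sum of CTNNB1 and JUP, the tail-bound partners of alpha-catenin, was 0.0200 and 0.0192, against 0.179 to 0.365 in the other DLD1 libraries. The ratio of VCL to CTNNA1 was 16.2 and 19.5 in the same clones, against 0.968 to 2.06 in the others. These ratios are of mRNA per length and say nothing of protein.

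The start regions of CTNNA1 and CTNNAL1 are shown because CTNNA1 had the lowest values in DLD1 small clones and CTNNAL1 the only calls within a line. RefSeq lists 4 CTNNA1 starts in the table used here, and the deposited values are per gene, so reads from different starts cannot be told apart. Each sequence runs 250 bases before to 50 bases after a start (RefSeq, GRCh38.p14), and capitals mark GGGCGG or its reverse complement CCGCCC. The first CTNNA1 start (chr5:138753175-138753474, plus strand), the CpG-poor CTNNA1 start (chr5:138874980-138875279, plus strand) and the CTNNAL1 start (chr9:109013450-109013749, minus strand) read as follows.
CTNNA1 first start: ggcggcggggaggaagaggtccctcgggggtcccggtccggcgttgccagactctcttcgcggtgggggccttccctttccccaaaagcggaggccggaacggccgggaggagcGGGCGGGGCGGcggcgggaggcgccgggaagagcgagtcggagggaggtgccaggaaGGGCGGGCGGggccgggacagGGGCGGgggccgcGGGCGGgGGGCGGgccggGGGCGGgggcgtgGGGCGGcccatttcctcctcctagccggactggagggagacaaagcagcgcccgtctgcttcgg
CTNNA1 CpG-poor start: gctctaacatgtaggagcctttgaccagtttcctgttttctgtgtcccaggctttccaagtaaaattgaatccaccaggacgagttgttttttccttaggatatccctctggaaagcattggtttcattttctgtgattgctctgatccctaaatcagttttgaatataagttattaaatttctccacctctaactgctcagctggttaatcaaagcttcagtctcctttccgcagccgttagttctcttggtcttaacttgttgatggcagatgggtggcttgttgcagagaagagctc
CTNNAL1 start: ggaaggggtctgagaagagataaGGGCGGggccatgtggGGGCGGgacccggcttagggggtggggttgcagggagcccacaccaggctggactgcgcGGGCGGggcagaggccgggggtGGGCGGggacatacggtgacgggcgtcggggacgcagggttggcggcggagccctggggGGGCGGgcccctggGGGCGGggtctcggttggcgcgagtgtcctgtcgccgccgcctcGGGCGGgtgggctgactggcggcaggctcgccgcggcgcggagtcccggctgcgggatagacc
The first CTNNA1 region held 9 matches to the motif and 37 CpG dinucleotides, and the CpG-poor one 0 matches and 3 CpG. The CTNNAL1 region held 7 matches and 33 CpG. Of the 35116 RefSeq promoters listed, 45.0% held at least 1 match, 0.419% held 9 or more and 1.50% held 7 or more, and the median promoter had 14 CpG. A match is a run of letters and no measure of binding.

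CTNNA1 stood apart from the genes around it. In DLD1, 18 other protein-coding genes with a mean of 1 FPKM or more lay within 1 Mb. Their median log2 difference from the 2N mean was 0.03 in small clone 2 and 0.02 in small clone 3, where CTNNA1 was at -3.42 and -3.57. The lowest neighbour in both was SIL1, a co-chaperone gene 11.7 kb downstream, at -0.72 and -0.64. HSPA9, a mitochondrial chaperone gene 35.2 kb upstream, was at -0.17 and -0.22. Distances run from the ends of CTNNA1 in the deposited annotation, whose start (138610967) lies before the first RefSeq start shown above. Small clone 1 had another profile, with a neighbour median of -0.31 and CTNNA1 at -0.65.

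**Figure D2:**
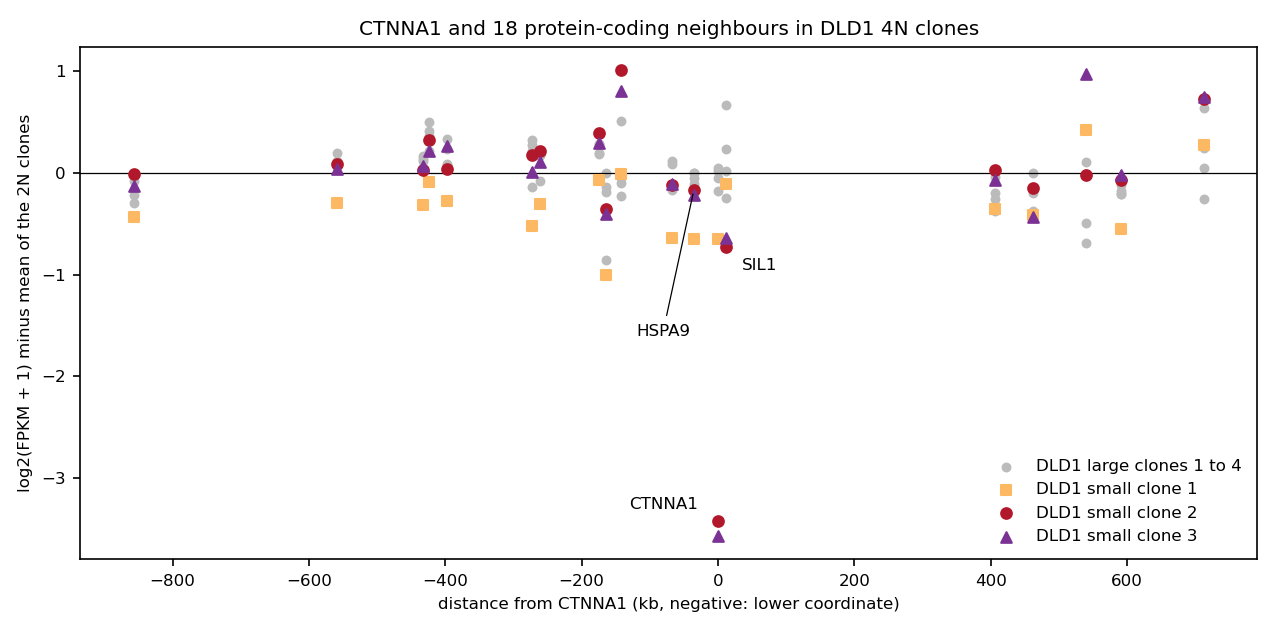
Each point is CTNNA1 or 1 of its 18 neighbours in 1 DLD1 4N clone, placed by distance from CTNNA1 in kb (horizontal) and by log2(FPKM + 1) minus the mean of the 2N clones (vertical). CTNNA1 lies at -3.42 and -3.57 in small clones 2 and 3, while no neighbour in those clones lies below -0.72.

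The genes most like CTNNA1 were sought by Pearson r on log2(FPKM + 1). Across the 10 DLD1 libraries the nearest of 11937 genes were PHKA1 (0.980), KPNA3 (0.977), SNX19 (0.972), ATP10D (0.959) and MARS (0.959). PHKA1, a muscle phosphorylase kinase subunit, had 4.94 to 6.88 FPKM in large clones, 5.10, 1.16 and 1.32 FPKM in small clones 1 to 3, and 5.32 and 7.54 FPKM in 2N clones. KPNA3, an importin alpha, had 25.5 to 30.0 FPKM in large clones, 26.4, 14.8 and 16.1 FPKM in small clones and 28.8 and 28.5 FPKM in 2N clones. Both were low in small clones 2 and 3, the libraries that set r. After each line's mean was taken off, the nearest over 26 libraries were PHKA1 (0.932), KCNJ8 (0.869), SNX19 (0.830), CIZ1 (0.797) and ZFP57 (0.769), and the nearest of the other 9 junction genes was CTNNB1 at 0.304. Across the 10 DLD1 libraries CTNNB1 was again the nearest of those 9, at 0.463. CTNNA1 varied mostly through small clones 2 and 3. These values of r therefore cannot show how the 9 genes ran with CTNNA1 in the other libraries.

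Outside the DLD1 small clones CTNNA1 was steady within a line. By group, its mean was 71.7 FPKM in the CAL51 small clone, 68.5 ± 8.93 FPKM (SD, n = 2) in CAL51 2N clones, 62.7 ± 6.18 FPKM (n = 3) in CAL51 large clones and 61.8 FPKM in the CAL51 parental library. HCT116 followed with 59.8 ± 3.15 FPKM (n = 2) in 2N clones, 56.3 ± 7.40 FPKM (n = 3) in large clones, 55.4 FPKM in the parental library and 53.3 ± 5.67 FPKM (n = 3) in small clones. DLD1 2N clones had 37.6 ± 5.25 FPKM (n = 2), large clones 36.4 ± 2.61 FPKM (n = 4) and the parental library 34.5 FPKM, with the small clones last at 9.41 ± 12.1 FPKM (n = 3). Neighbours in this order differed by less than their spread, apart from the step between HCT116 and DLD1 and the step to the DLD1 small clones. The wide DLD1 small group also widened the standard error of CTNNA1 in every contrast of the shared fit. CAL51 minus DLD1 2N clones gave 0.85 (adjusted p 0.257), and 0.000792 was the adjusted p with the small DLD1 group left out, a fit chosen after seeing the data. DLD1 minus HCT116 2N clones gave -0.66, with adjusted p 0.382 and, with that group left out, 0.00554.

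Alpha-catulin (CTNNAL1, ENSG00000119326, chr9:108942569-109013529, minus strand), a relative of alpha-catenin and vinculin, rose in HCT116 large clones. It measured 40.0, 49.6 and 59.6 FPKM in large clones, 19.8, 22.9 and 25.7 FPKM in small clones, 22.0 and 25.5 FPKM in 2N clones and 28.6 FPKM in the parental library. Every large clone was above every other HCT116 library, while small and 2N clones overlapped. Large exceeded small clones by 1.08 ± 0.17 (SE, log2 scale, limma adjusted p 0.0083), and CTNNAL1 was the 1 of 10 junction genes called, where 0.445% of all tested genes were called. Large exceeded 2N clones by 1.02 ± 0.19 (adjusted p 0.0179), again the 1 of 10 called, where 0.917% of all tested genes were called. Both comparisons use the same large clones. The call against 2N clones was lost without large clone 3 (adjusted p 0.0603), without 2N clone 1 (0.255) and without 2N clone 2 (0.108), and both calls were lost when HCT116 was fitted alone (0.136 against small clones and 0.207 against 2N clones).

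No such difference passed the test in the other lines, where large minus small in DLD1 was not tested. CTNNAL1 measured 40.2, 37.0, 50.9 and 43.8 FPKM in DLD1 large clones, 52.7, 46.3 and 42.5 FPKM in small clones, 52.5 and 50.7 FPKM in 2N clones and 48.2 FPKM in the parental library. In CAL51 it measured 23.9, 36.9 and 28.8 FPKM in large clones, 40.1 FPKM in the small clone, 39.5 and 31.2 FPKM in 2N clones and 27.1 FPKM in the parental library. The large groups overlapped the 2N groups in both lines. The difference between lines was tested directly. The large minus small difference was lower in CAL51 than in HCT116 by 1.51 ± 0.30 on the log2 scale (-1.51, adjusted p 0.0193, where 1.54% of all tested genes were called), a value that rests on the single small CAL51 clone. With voom it was -1.47 (adjusted p 0.0511), past the threshold no longer. For large minus 2N, HCT116 minus DLD1 was 1.29 (adjusted p 0.109), CAL51 minus HCT116 was -1.27 (0.065) and CAL51 minus DLD1 was 0.02 (1), so none passed. In those 3 tests 0.0135%, 0.155% and 0.0472% of all tested genes were called, and 0 of the 10 junction genes. Of the junction genes 1, 3 and 1 had an unadjusted p under 0.05, a looser threshold whose share over all genes was not taken. CTNNAL1 did pass for HCT116 minus DLD1 without HCT116 large clone 2 (1.28, adjusted p 0.0442), and for CAL51 minus HCT116 without that clone (-1.26, 0.0389), without CAL51 large clone 2 (-1.43, 0.019) or without CAL51 2N clone 2 (-1.44, 0.0331).

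Genes around CTNNAL1 did not rise with it as a block. The 5 protein-coding neighbours within 1 Mb had medians of -0.05, -0.20 and 0.05 against the 2N mean in HCT116 large clones 1 to 3, where CTNNAL1 was at 0.74, 1.04 and 1.30. One of them, EPB41L4B, a band 4.1 family gene 158 kb away, was at 0.84, 0.23 and 1.22. FAM206A overlaps CTNNAL1 on the other strand and had 11.6 FPKM or less in any library. The libraries were directional, but how strand was used in counting is not given in the sources used here.

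The catenins that bind the cadherin tail were level in most groups. CTNNB1 (beta-catenin, also the effector of WNT signalling) measured 35.1, 29.3 and 33.0 FPKM in HCT116 large clones, 42.0, 31.9 and 40.1 FPKM in small clones and 30.5 and 29.1 FPKM in 2N clones. Over all libraries it ranged from 23.8 to 45.4 FPKM, and CTNND1 from 27.8 to 42.8 FPKM. In DLD1 small clones 1 to 3, CTNNB1 was at 30.8, 35.4 and 27.9 FPKM, against 38.8 and 45.4 FPKM in 2N clones, a log2 difference of -0.42 that is given without a test. The order of the 3 small clones in CTNNB1 was not that in CTNNA1.

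JUP was the most abundant of the 4 cadherin-bound catenins per length in most libraries. It measured 93.9, 89.1 and 188 FPKM in CAL51 large clones, 55.2 FPKM in the small clone, 55.2 and 85.8 FPKM in 2N clones and 126 FPKM in the parental library. Every CAL51 large clone lay above the small clone and both 2N clones, but large clone 3 stood far above the rest. Large minus small was 1.06 ± 0.37 (adjusted p 0.201) and large minus 2N was 0.75 ± 0.29 (0.463), so JUP did not pass. In HCT116 JUP spanned 78.6 to 134 FPKM. Its large clones there (119 to 134 FPKM) lay above the 2N clones (108 and 111 FPKM) but overlapped the small clones, and large minus 2N was 0.21 ± 0.29 (adjusted p 0.81). In DLD1 JUP spanned 64.3 to 124 FPKM, with overlapping groups.

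CDH1 was higher in every DLD1 library than in any library of the other lines, while HCT116 and CAL51 overlapped. CDH1 measured 112, 70.0, 118 and 102 FPKM in DLD1 large clones, 115, 76.0 and 109 FPKM in small clones, 103 and 126 FPKM in 2N clones and 98.4 FPKM in the parental library. In HCT116 it measured 19.6, 22.3 and 26.2 FPKM in large clones, 10.8, 23.9 and 11.0 FPKM in small clones, 1.92 and 14.9 FPKM in 2N clones and 17.7 FPKM in the parental library. In CAL51 it measured 0.666, 0.729 and 0.193 FPKM in large clones, 3.91 FPKM in the small clone, 11.1 and 0.231 FPKM in 2N clones and 1.22 FPKM in the parental library. DLD1 was high throughout, including the small clones with little CTNNA1, and single clones stood out in the other lines: HCT116 2N clone 1 was low and CAL51 2N clone 1 was high.

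The comparison of CDH1 between ploidies turned on those single clones. HCT116 large minus 2N was 1.79 ± 0.69 (adjusted p 0.21), and CAL51 large minus 2N was -1.35 ± 0.69 (adjusted p 0.659), so neither passed. The HCT116 value was 0.57 (adjusted p 0.902) without 2N clone 1 and 3.01 (0.171) without 2N clone 2. Without CAL51 2N clone 2 the CAL51 value was -3.00 (adjusted p 0.0164), and without CAL51 2N clone 1 it was 0.29. CAL51 minus HCT116 for large minus 2N was -3.14 ± 0.98 (adjusted p 0.196), and -4.79 without CAL51 2N clone 2 (adjusted p 0.00572). The direction in CAL51 thus depended on which of its 2N clones was used.

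P-cadherin (CDH3), which neighbours CDH1 on chromosome 16, ran in another order of lines. It measured 35.5, 39.8 and 33.0 FPKM in HCT116 large clones, 28.7, 32.5 and 24.2 FPKM in small clones and 31.9 and 28.6 FPKM in 2N clones. In DLD1 it ranged from 5.26 to 15.0 FPKM. In CAL51 it was 0.407, 0.546 and 0.0764 FPKM in large clones, 1.65 FPKM in the small clone, 0.555 and 0.462 FPKM in 2N clones and 0.977 FPKM in the parental library. The CAL51 small clone was the highest of its line. Large minus small there was -1.0 ± 0.32 (adjusted p 0.164) on the log2(FPKM + 1) scale, which understates changes of such low values. It passed with log2(FPKM + 0.1) (-2.18, adjusted p 0.0489) and with TPM (-1.78, adjusted p 0.0355). CDH1 exceeded CDH3 in every DLD1 library, by 7.69 to 13.3 times, and was below it in every HCT116 library, at 0.0602 to 0.794 of its level.

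Of the other cadherins, CDH2 was highest in CAL51 and CDH17 in DLD1. N-cadherin (CDH2), the mesenchymal and neural form, measured 17.6, 31.7 and 13.6 FPKM in CAL51 large clones, 3.28 FPKM in the small clone, 31.3 and 34.0 FPKM in 2N clones and 9.41 FPKM in the parental library. CDH2 was higher in large than in small by 2.27 (adjusted p 0.000137) and fell in the small clone relative to 2N clones, at -2.97 (adjusted p 5.82e-05), both with a single small clone; with CAL51 fitted alone the adjusted p-values were 0.803 and 1. It was at most 0.00595 FPKM in HCT116 and 0.218 FPKM in DLD1. The summed CDH1, CDH3 and CDH2 level in CAL51 was 18.6, 32.9 and 13.9 FPKM in large clones, 8.84 FPKM in the small clone and 43.0 and 34.6 FPKM in 2N clones. CDH17, the liver-intestine cadherin, ranged from 4.94 to 36.9 FPKM in DLD1 and stayed at 0.083 FPKM or less in HCT116. In CAL51 it reached 1.16 FPKM in 2N clone 2 and 4.66 FPKM in the parental library, the libraries in which the fibroblast marker COL3A1 was at 7.06 and 29.9 FPKM and the endothelial cadherin CDH5 at 0.82 and 3.24 FPKM. The part of those markers in the values of these libraries was not tested. Of 14 other classical and type II cadherins 4 passed the filter, CDH24 among them at 7.65 to 32.6 FPKM over all 3 lines.

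**Figure D3:**
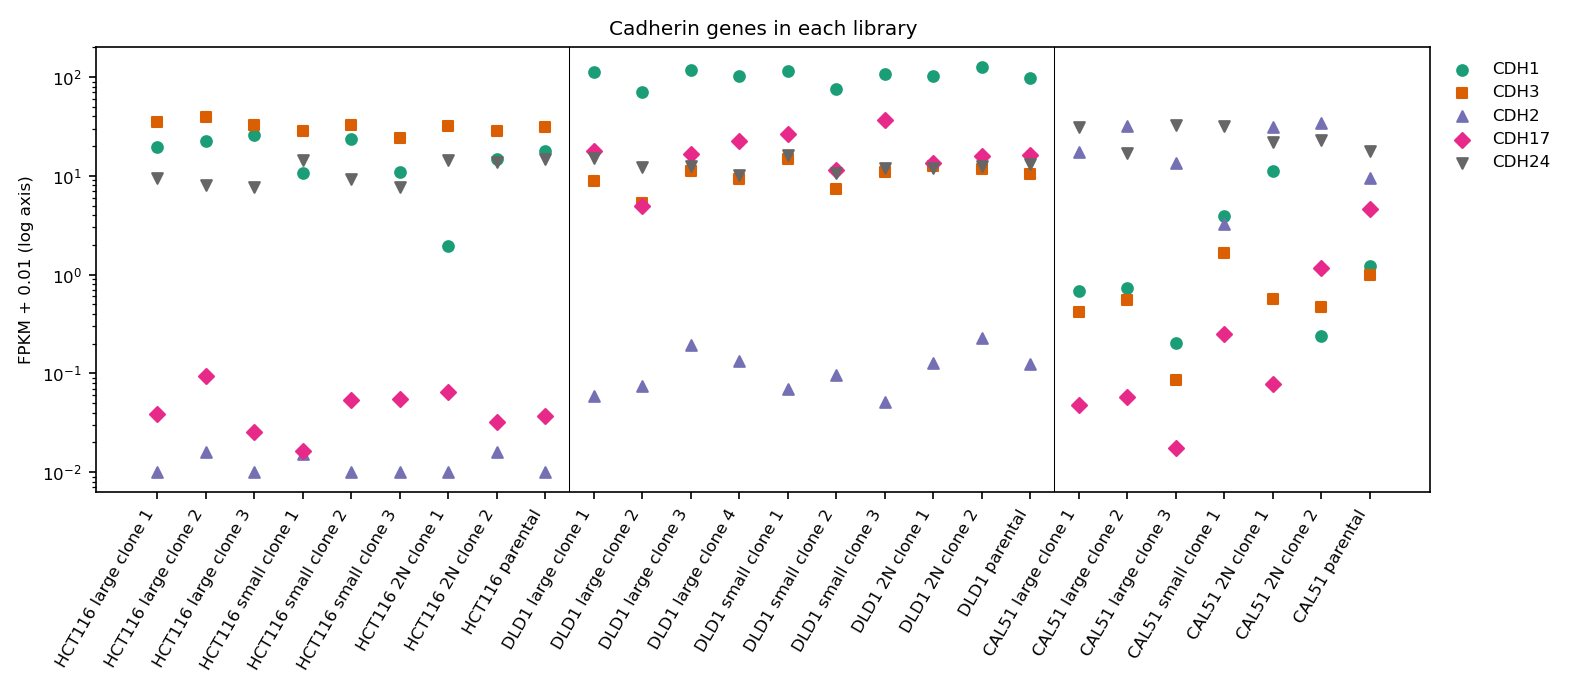
FPKM + 0.01 (vertical, log axis) of 5 cadherin genes in each library (horizontal, grouped by line as large 4N, small 4N, 2N and parental). CDH1 leads in all DLD1 libraries, CDH3 in all HCT116 libraries, and CDH2 or CDH24 in all CAL51 libraries.

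Repressors of CDH1 and genes that keep epithelial identity also differed by line. The repressor TWIST1 was at 23.7 to 72.3 FPKM in CAL51, 0 to 2.46 FPKM in HCT116 and listed at 0 in every DLD1 library. ZEB1 was at 1.93 to 4.56 FPKM in CAL51 and at most 0.899 FPKM elsewhere, while SNAI1 was lower in CAL51 (1.12 to 3.33 FPKM) than in HCT116 (7.49 to 14.1 FPKM). Among 2N clones 2 of the 4 tested repressors were higher and 2 lower in CAL51 than in HCT116, where 45.4% of all tested genes were called. GRHL2, an activator of CDH1, was at most 0.571 FPKM in CAL51, against 10.3 to 13.6 FPKM in DLD1. Of 11 epithelial keepers 7 were lower in CAL51 than in DLD1 2N clones and 0 were higher, where 40.1% of all tested genes were called, with a list median of -1.96 beside 0.01 over all tested genes. Against HCT116 2N clones 5 were lower and 2 higher in CAL51, with a list median of -0.90 beside 0.02.

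Vinculin and nectin-2 were higher in every CAL51 library than in any HCT116 or DLD1 library, while afadin overlapped between CAL51 and DLD1. VCL measured 63.3, 95.1 and 131 FPKM in CAL51 large clones, 82.5 FPKM in the small clone and 78.3 and 58.2 FPKM in 2N clones. In HCT116 it measured 18.4, 24.2 and 20.3 FPKM in large clones, 18.2, 21.1 and 18.4 FPKM in small clones, 28.2 and 27.8 FPKM in 2N clones and 25.7 FPKM in the parental library. Every HCT116 4N clone was below every 2N and parental library, but the differences did not pass: large minus 2N was -0.41 ± 0.24 (adjusted p 0.414) and small minus 2N was -0.52 ± 0.24 (adjusted p 1). VCL overlaps AP3M1 on the other strand, which had up to 20.5 FPKM. NECTIN2 measured 164, 46.2 and 96.7 FPKM in CAL51 large clones, 149 FPKM in the small clone and 123 and 66.7 FPKM in 2N clones, with wide overlap. AFDN, at 5.31 to 13.6 FPKM over all libraries, was the least abundant of the 3.

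Apart from CTNNAL1 in HCT116, none of the 10 genes passed the threshold in the tested comparisons of size or ploidy within a line. In HCT116 small minus 2N, 0 of 10 were called, 1 had an unadjusted p under 0.05 (VCL), and 0.027% of all tested genes were called. In DLD1 large minus 2N, limma called 0 of 10 and 0% of all tested genes, and 0 of the 10 had an unadjusted p under 0.05. All 10 differences there were below 0, from -0.49 (CDH3) to -0.0036 (CTNND1), with a median of -0.16 beside -0.01 over all tested genes. The share of all tested genes below 0 was not taken. In CAL51 0 of 10 were called in large minus small, small minus 2N and large minus 2N, where 1.52%, 0.148% and 0.465% of all tested genes were called. In the same order, 2, 1 and 1 of the 10 had an unadjusted p under 0.05. That threshold is looser than the one for calls, and its share over all genes was not taken. The voom fit to recovered reads also called 0 of 10 in each of these 5 comparisons. Large and small clones were set against the same 2N clones, so the columns of the heat map within a line share libraries.

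**Figure D4:**
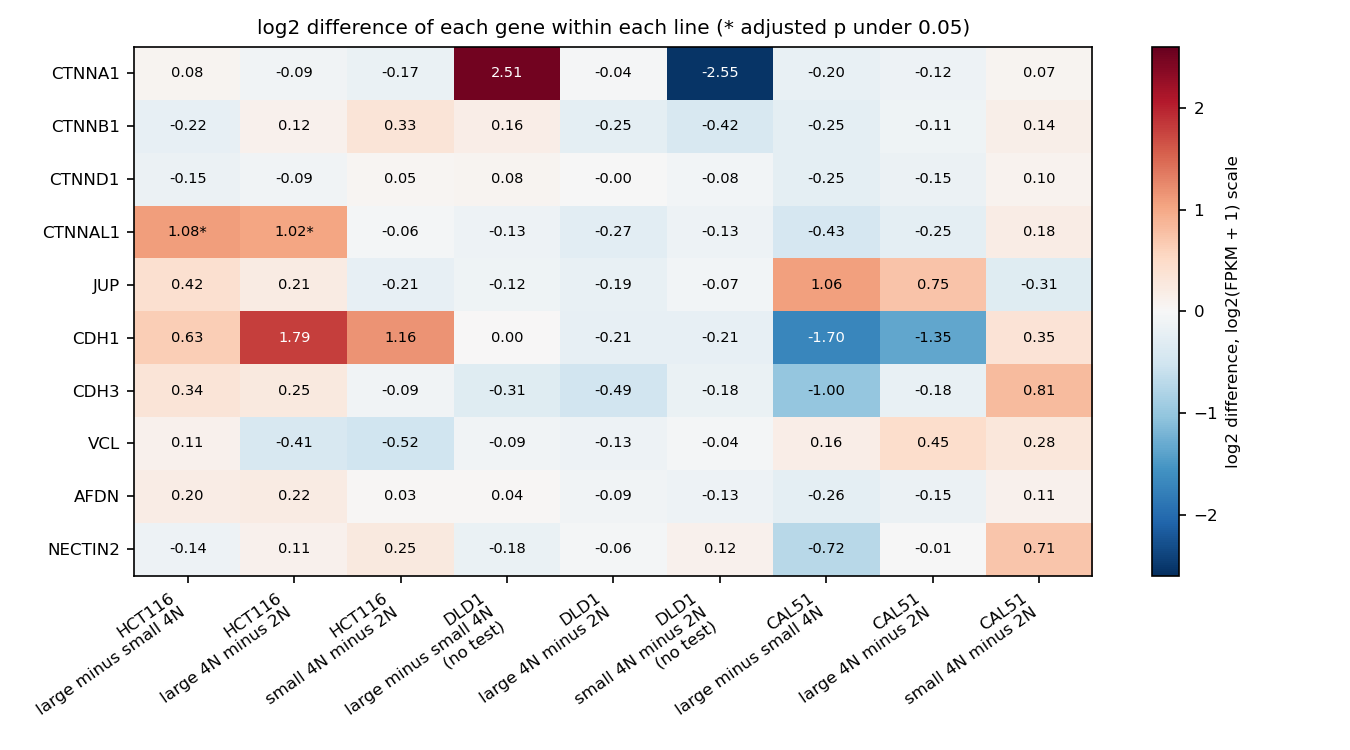
Each cell gives the log2 difference on the log2(FPKM + 1) scale of 1 gene (rows) in 1 comparison within a line (columns), with red higher and blue lower in the first-named class. Asterisks mark adjusted p under 0.05, which are CTNNAL1 in HCT116 large minus small (1.08) and large minus 2N (1.02); columns with DLD1 small clones are shown without a test.

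Few further junction genes passed the test. Of 40 partners (nectins, actin linkers, phosphatases and others) 37 were tested, and within lines, DLD1 small clones aside, 1 was called in 1 comparison, HCT116 large minus small, where 0.445% of all tested genes were called. PTPN1, a phosphatase that acts on cadherin-bound beta-catenin, rose in HCT116 large clones, at 40.9, 53.5 and 44.5 FPKM, against 25.2, 25.4 and 30.6 FPKM in small clones (0.75, adjusted p 0.0342). That call was lost in 9 alternative fits and held in 5. Voom was among those that lost it (adjusted p 0.0759). So were the fits without large clone 1, large clone 3, small clone 1 or small clone 2, with adjusted p between 0.056 and 0.174. The partners' median in that comparison was 0.12, beside -0.00 over all tested genes. Of 14 desmosome genes 9 were tested. DSC3, a desmosomal cadherin, fell in HCT116 large clones, at 2.94, 3.25 and 3.15 FPKM, against 5.14 and 4.37 FPKM in 2N clones (-0.48, adjusted p 0.049). That call was lost in 10 alternative fits and held in 3. Among those that lost it were voom (adjusted p 0.127) and the fits without large clone 1, large clone 3 or either 2N clone. PKP2, a desmosomal plaque protein, was at 16.6, 22.3 and 9.66 FPKM in CAL51 large clones, against 58.4 FPKM in the small clone (-1.86, adjusted p 0.0163, and 0.941 with CAL51 fitted alone).

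Between lines, differences were many for genes in general and for the junction genes alike. The 3 comparisons of 2N clones share libraries and are given side by side. CAL51 minus HCT116 called 5 of 10, where 45.4% of all tested genes were called: NECTIN2 (1.61), VCL (1.24), AFDN (0.91) and CTNNAL1 (0.55) were higher and CDH3 (-4.37) lower in CAL51. CAL51 minus DLD1 called 4 of 10, where 40.1% were called: NECTIN2 (1.46) was higher and CDH1 (-4.90), CDH3 (-3.13) and CTNNB1 (-0.48) lower in CAL51. DLD1 minus HCT116 called 6 of 10, where 39.6% were called: CDH1 (4.08), CTNNAL1 (1.09), VCL (0.70), AFDN (0.67) and CTNNB1 (0.48) were higher and CDH3 (-1.25) lower in DLD1. These shares are near the background of line differences, and each comparison has 2 clones a group. Several calls were lost when 1 clone was left out. CTNNB1 was lost without any 1 of the 2N clones of its comparisons. CTNNAL1 in CAL51 minus HCT116 was lost without either HCT116 2N clone or CAL51 2N clone 1, and NECTIN2 in CAL51 minus DLD1 without CAL51 2N clone 1 (1.02, adjusted p 0.0936). In DLD1 minus HCT116, VCL was lost without either HCT116 2N clone or DLD1 2N clone 2 (0.38), and AFDN without HCT116 2N clone 2 or DLD1 2N clone 2. CDH1 in CAL51 minus HCT116 was not called (-0.82, adjusted p 0.404) and turned on single clones. It was -2.47 (adjusted p 0.00718) without CAL51 2N clone 1, but 0.83 (0.342) without CAL51 2N clone 2 and 0.40 (0.748) without HCT116 2N clone 2. CTNNAL1 in CAL51 minus DLD1 passed without CAL51 2N clone 1 (-0.71, adjusted p 0.0475). The other calls held when any 1 clone was left out. Changes of scale, filter or model also ended some calls. Over all alternative fits, CTNNB1 was lost in 11 and held in 2 for CAL51 minus DLD1. For DLD1 minus HCT116 it was lost in 9 and held in 4. CTNNAL1 in CAL51 minus HCT116 was lost in 7 and held in 6. In DLD1 minus HCT116, VCL was lost in 6 and held in 7, and AFDN was lost in 3 and held in 10. Of the desmosome genes 8 of 9 tested were lower in CAL51 than in HCT116 2N clones, led by PPL (-4.03), DSG2 (-3.25) and EVPL (-3.01), while PKP2 was higher (1.86).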

How the data were processed

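The values were FPKM per gene, as deposited by the authors for 58735 genes in 26 libraries. Per the submitters' processing notes, the tools were fastp, HISAT2 2.0.5, featureCounts 1.5.0-p3 and DESeq2, and the build was GRCh38. Multiplying FPKM by gene length gave whole reads (within 0.01) for 100% of values, hence the depth of 23.5 to 44.5 M reads; 1 read in 1 kb was worth 0.0246 to 0.0400 FPKM, which covers counting error only.

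Genes with 1 FPKM or more in at least 3 libraries (14835) were fitted on log2(FPKM + 1) with limma 3.58.1 in R 4.3.3, with 12 group means (14 residual degrees of freedom), a trend and moderated variances. Tests were two-sided, with Benjamini-Hochberg adjustment over all tested genes of a contrast and a threshold of 0.05. CAL51 had 1 small clone, whose spread was taken from the other groups, and parental libraries entered no contrast. Other pseudocounts, filters, TPM, limma voom on recovered reads, single-line fits, a replicate block and leaving out each clone were alternatives.

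Members and lists were chosen with earlier results of these data known. The genes named are the 10 members, up to 4 list genes per list and contrast among those past the threshold, list genes at 0, the 5 genes nearest to CTNNA1 and the protein-coding neighbours; CDX1, TFAP2A, CDH24, COL3A1, SNAI1, GRHL2 and ranges of other list genes were named after their values were seen. On simulated data, 100 genes were given a log2 change of 1. The fit found 78 in HCT116 large minus small, 69 in HCT116 large minus 2N, 69 in DLD1 large minus 2N and 75 in CAL51 large minus 2N. In the same order it called 8, 10, 5 and 9 unchanged genes. In HCT116 large minus 2N the SE was 0.52 for CTNNA1 and 0.69 for CDH1. The found shares do not carry over to genes with so wide a spread. Sequences are from RefSeq, where 7 of the 10 genes were matched. Python 3.11.15 with numpy 2.4.6, pandas 2.3.3 and matplotlib 3.10.9 was used for the rest.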

Additional observations from a re-analysis of the deposited data

Results flagged for a closer look

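The large minus small difference of CTNNAL1 was tested between lines, and CAL51 minus HCT116 was -1.51 on the log2 scale (adjusted p 0.0193). CTNNAL1 was at 23.9 to 36.9 FPKM in the 3 CAL51 large clones and 40.1 FPKM in the 1 small clone, and at 40.0 to 59.6 FPKM in the 3 HCT116 large clones and 19.8 to 25.7 FPKM in the 3 small clones. The CAL51 side rests on 1 small clone, which could not be left out and whose spread was taken from the other groups, so the value is that of a single clone. The call was lost with voom (adjusted p 0.0511) and with the replicate block (0.0516). Leaving out any other clone gave -1.67 to -1.37.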

How the results depend on the processing

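Of the 10 junction genes, HCT116 large minus small called 1 in the main fit and 0 when the line was fitted alone. HCT116 large minus 2N called 1, but 0 with the line alone, 0 with the replicate block and 0 to 1 when a clone was left out. CAL51 large minus small called 0, but 1 with log2(FPKM + 0.1) and 1 with TPM. CAL51 large minus 2N called 0 to 1 when a clone was left out. Between 2N clones, CAL51 minus DLD1 called 2 when a mean of 1 FPKM was required in each line, and DLD1 minus HCT116 called 6, but 3 with the replicate block and 3 to 5 when a clone was left out. The difference of lines in large minus 2N called 0, but 1 with no filter, 1 with parental libraries counted as 2N and 0 to 2 when a clone was left out; that in large minus small called 1, but 0 with voom and 0 with the replicate block. Apart from CDH3 leaving the test under that filter, the causes were not tested. CDH1 reversed in CAL51 large minus 2N, with -3.00 to 0.29 when a clone was left out, and in CAL51 minus HCT116 2N clones, at -0.82, with 0.61 under the replicate block and -2.47 to 0.83 when a clone was left out. The CTNNA1 difference in DLD1, on which the genes were chosen, was 2.00 to 3.45 for large minus small when a clone was left out. Over 16 same-numbered pairs the correlation of deviations was -0.06 to 0.21, with 6 over 0.1, so the clones were not taken as paired; under the block CTNNAL1 in HCT116 large minus 2N was 0.91 (adjusted p 0.144). Groups held 1 to 4 clones.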
